A study of Homo sapiens and Mus musculus with 29 samples.

Results

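HNF4G-KO tumors were compared with control tumors in the pancreas of mice, gene by gene and across 45 lists of genes grouped by function. The comparison takes 7 of the 29 RNA-seq samples of the study, namely the 4 primary tumors whose labels name an HNF4G knockout with an empty vector (EV) and the 3 primary tumors whose labels name Cas-9 with EV. Peritoneal metastases, tumors with FOXA1 overexpression (FOXA1-OE) and mouse KPC cell lines make up the other samples. All tumors grew from HPAF-II, an established human cell line of pancreatic ductal adenocarcinoma (PDAC), injected into the pancreas of young adult NSG mice, which lack functional T, B and natural killer cells. Both groups carry the products of a CRISPR experiment and the EV lentivirus, and each tumor came from its own mouse at a humane endpoint. According to the methods of the study, the HNF4G-KO cells are a pool of 3 clones, which it reports as knockouts. The methods call their frameshift mutations heterozygous and also write the pool as HNF4G-/-. The group represents these clones, while control cells received Cas9 without loss of HNF4G.

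HNF4G and its close relative HNF4A are nuclear receptors that bind the same DNA motif and sustain the programs of epithelial cells in gut, liver and pancreas. FOXA and GATA factors act beside them, opening chromatin at enhancers of endodermal genes. Classical PDAC is the subtype that keeps such endodermal programs and makes mucins, trefoil factors and other products of gastric and intestinal mucosa, whereas basal-like PDAC leans toward squamous keratins. Genes of these programs, of cell junctions, of metabolism and of signaling were therefore followed one group at a time.

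Levels are RPKM, numbers of reads divided by gene length and by library total, as deposited by the authors. Differences are log2 fold changes of RPKM + 1, which understate changes of genes near 0. The depth, worked out from the smallest steps between RPKM values, was 35.1 to 64.1 M reads per tumor, and 13737 to 14716 genes were at 1 RPKM or more. Control tumor 2 had the lowest depth and stood apart by transcripts of pancreatic acinar and islet cells, whose 20 markers summed to 1799 RPKM against 2.45 to 36.8 RPKM in the other 6 tumors. The counts of calls below are therefore also given without this library, some of them gathered after the lists. HPAF-II epithelium was present in every tumor, since the 15 defining markers of ductal epithelium, among them EPCAM and keratins, summed to 4426 to 6295 RPKM.

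HNF4G mRNA was at 3.47, 2.48 and 2.57 RPKM in control tumors and at 7.10, 8.42, 5.72 and 7.11 RPKM in tumors labeled HNF4G-KO. The groups did not overlap, and the level was higher under the knockout label, with a log2 fold change of 1.07 ± 0.37 (SE). It did not pass the test in the fit that also holds tumors with FOXA1-OE (limma adjusted p = 0.0698). A limma fit of only these 7 tumors called HNF4G (SE 0.14, adjusted p = 0.00142), as it did 39.7% of all genes. The mRNA thus went against the label. A frameshift can leave mRNA in place, and protein was not measured here, so directions below are those of tumors labeled HNF4G-KO.

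In total 1736 of 14269 genes tested had a limma adjusted p under 0.05, or 12.2%. Under the knockout label 882 of them rose (6.18%) and 854 fell (5.99%). Counts for the gene lists below are to be read against these shares. The median log2 fold change of all genes was 0.01. The 4 tumors labeled HNF4G-KO correlated with each other at a Pearson r of 0.977 to 0.989 across genes, control tumors with each other at 0.958 to 0.970, and the groups with each other at 0.896 to 0.957. Groups did not overlap for 6624 genes, or 46.4% (25.1% higher and 21.3% lower), a share that includes many genes that did not pass the test. The number of calls depended on the tumors in the fit. It was 284 (2.0%) without control tumor 2, of which 1.1% of genes were higher and 0.9% lower. It was 5595 of 14088 (39.7%) when only these 7 tumors were fitted (21.3% higher and 18.4% lower), where the median SE was 0.136 in place of 0.216 with all 4 groups.

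The 10 largest rises were led by genes of gastric and intestinal epithelium. PHGR1, an abundant small protein of the gut lining, was at 80.3, 45.3 and 4.53 RPKM in control tumors and at 419, 268, 336 and 349 RPKM in tumors labeled HNF4G-KO (log2 fold change 3.63 ± 0.83, adjusted p = 0.0169). Control tumor 3 was the lowest by far, and the call was lost without control tumor 2 (adjusted p = 0.0519). CLDN18, a tight junction protein of stomach and lung, was nearly absent from control tumors at 0.172, 0.206 and 0.0209 RPKM, and reached 15.3, 12.9, 5.61 and 6.04 RPKM under the knockout label. Its mean was 75.1-fold higher (log2 fold change 3.17 ± 0.34, adjusted p = 0.00032). QPCT, the enzyme that forms N-terminal pyroglutamate on secreted peptides, rose from 9.24, 6.28 and 8.21 RPKM to 65.7, 84.7, 69.5 and 60.5 RPKM (3.00 ± 0.30, adjusted p = 0.00023). In all 3 genes the groups were well separated, although CLDN18 was higher in tumors 1 and 2 labeled HNF4G-KO than in tumors 3 and 4.

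CEACAM5, the carcinoembryonic antigen of gut epithelium, was at 199, 107 and 47.0 RPKM in control tumors and at 773, 639, 689 and 762 RPKM in tumors labeled HNF4G-KO (2.82 ± 0.49, adjusted p = 0.00546). TFF1, a trefoil peptide secreted with gastric mucus, was at 51.2, 88.9 and 59.7 RPKM and at 663, 336, 444 and 399 RPKM (2.76 ± 0.70, adjusted p = 0.0246). This call held in only 1 of the 7 fits that left out a tumor of these groups. VSIG2 (2.87), the metalloprotease MMP28 (2.79), FER1L6 (2.65), the aldehyde dehydrogenase ALDH3A1 (2.43) and ENSG00000232524 (2.43), a long noncoding RNA gene of chromosome 7, complete the 10 rises. Of the 10, 8 were called in every fit without 1 of the 7 tumors.

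**Figure D1:**
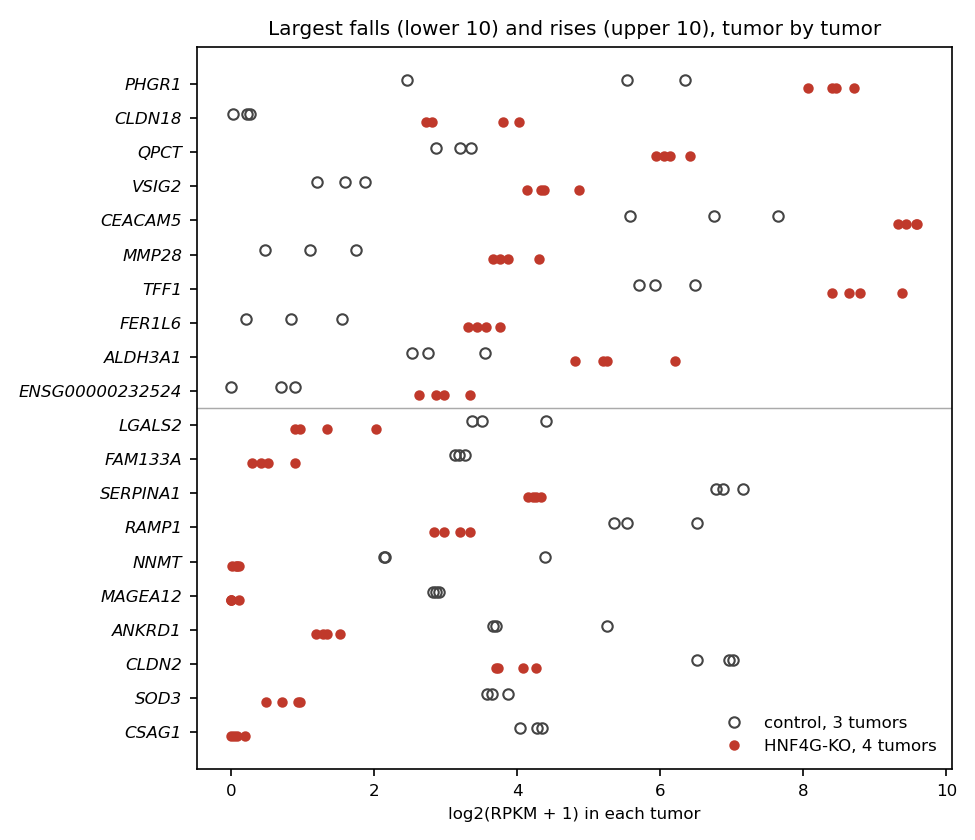
Levels of the 10 largest falls and 10 largest rises as log2(RPKM + 1) on the horizontal axis, 1 point per tumor, for 3 control tumors (open) and 4 tumors labeled HNF4G-KO (filled). The groups do not overlap for any gene by the rule that chose them, and the spread is widest among controls for PHGR1, NNMT and CEACAM5.

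The 10 largest falls did not share a single function. CSAG1, a cancer-testis antigen, was at 15.5, 18.4 and 19.4 RPKM in control tumors and at 0.0346, 0, 0.0598 and 0.143 RPKM under the knockout label, which is close to absent (-4.14 ± 0.51, adjusted p = 0.000652). MAGEA12, its neighbor on chromosome X, was at 6.52, 6.11 and 6.27 RPKM and at 0 in tumors 1, 2 and 3 and 0.0802 RPKM in tumor 4 (-2.84 ± 0.33, adjusted p = 0.00055). Both belong to families of similar copies, so the share of their reads that comes from other copies is uncertain. SOD3, the extracellular superoxide dismutase, fell from 11.6, 13.7 and 11 RPKM to 0.409, 0.639, 0.951 and 0.908 RPKM (-2.93 ± 0.47, adjusted p = 0.00324). CLDN2, a claudin that forms cation pores in leaky epithelia, was at 128, 124 and 90.0 RPKM and at 15.9, 18.1, 12.1 and 12.3 RPKM, a 7.81-fold lower mean.

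SERPINA1, alpha-1 antitrypsin and an inhibitor of neutrophil elastase, was at 117, 109 and 142 RPKM in control tumors and at 16.7, 18.2, 17.7 and 19.1 RPKM in tumors labeled HNF4G-KO (-2.70 ± 0.27, adjusted p = 0.00022). NNMT, which methylates nicotinamide, was at 3.45, 3.42 and 20.0 RPKM and at 0.0778, 0.0116, 0.0559 and 0.0534 RPKM, so that control tumor 3 was far above the other control tumors while every tumor under the knockout label was near 0. ANKRD1 (-2.88), a target of the YAP coactivator, RAMP1 (-2.71), a partner of the calcitonin-like receptor, FAM133A (-2.66) and LGALS2 (-2.46), a galectin, complete the falls. All 10 were called in each fit without 1 of the 7 tumors. Control tumor 3 was the lowest control in 7 of the 10 rises and the highest in 7 of the 10 falls, so the control group varied along the direction of the comparison.

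Stretches upstream of transcription starts are shown for the leading rises and falls to give the sequence context of the largest changes. They come from RefSeq (GRCh38.p14) and end where a GENCODE exon begins or at the start site. PHGR1 was not matched, and the bases before CSAG1 lie in the first exons of MAGEA12, its divergent neighbor, and are not printed. CLDN18 has 2 starts, from which the gene-level RPKM cannot be apportioned, and it is given for both (chromosome 3, plus strand, chr3:137998566-137998734 and chr3:138009915-138010164). QPCT is given for chr2:37344380-37344593 (plus strand) and SOD3 for chr4:24795323-24795572 (plus strand). Capitals mark matches, on either strand, to the letters TGTTTAC, bound by FOXA factors. They also mark AGATAA, bound by GATA factors. The HNF4 letters CAAAGTCCA were not found in these stretches. The AP-1 letters TGANTCA were not found either.
CLDN18 first start: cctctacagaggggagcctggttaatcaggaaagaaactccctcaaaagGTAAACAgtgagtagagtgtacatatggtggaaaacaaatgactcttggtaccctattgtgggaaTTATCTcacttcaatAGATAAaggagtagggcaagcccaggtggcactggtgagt
CLDN18 second start: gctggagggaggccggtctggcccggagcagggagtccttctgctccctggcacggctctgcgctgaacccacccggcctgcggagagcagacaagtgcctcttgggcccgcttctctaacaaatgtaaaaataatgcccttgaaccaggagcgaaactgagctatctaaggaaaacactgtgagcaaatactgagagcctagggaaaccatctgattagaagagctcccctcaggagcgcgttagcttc
QPCT: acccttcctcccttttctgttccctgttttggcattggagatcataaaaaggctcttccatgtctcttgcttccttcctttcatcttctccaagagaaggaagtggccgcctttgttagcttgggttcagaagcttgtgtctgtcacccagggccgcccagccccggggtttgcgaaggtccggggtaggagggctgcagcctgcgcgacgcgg
SOD3: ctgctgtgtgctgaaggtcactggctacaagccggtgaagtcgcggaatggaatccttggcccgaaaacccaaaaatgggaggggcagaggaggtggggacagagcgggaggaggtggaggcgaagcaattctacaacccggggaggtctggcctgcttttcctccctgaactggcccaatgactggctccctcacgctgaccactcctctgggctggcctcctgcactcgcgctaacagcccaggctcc
The first CLDN18 start is preceded by 1 FOXA and 2 GATA matches, and the other 3 stretches by none. Over the 250 bases upstream of 35116 RefSeq starts, 2.98% held the FOXA letters, 9.17% the GATA letters, 6.57% the AP-1 letters and 0.325% the HNF4 letters. Among 975 starts of genes called higher these shares were 3.38%, 6.36%, 6.67% and 0.41%, and among 684 starts of genes called lower 1.90%, 3.65%, 5.99% and 0.146%, against 2.31%, 4.91%, 4.64% and 0.317% for 13566 starts of genes tested. A match is a string of letters and not a measured binding site.

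Most classical PDAC markers rose in tumors labeled HNF4G-KO. Of 21 tested genes on a list of classical PDAC markers, 13 rose and 0 fell, with a median log2 fold change of 1.31, beside 6.18% of all genes called higher. Gastric pit and mucosal secretory genes overlap that list, so their counts are not independent, and 11 of 22 rose and 0 fell (median 1.23). Both lists were chosen with earlier results of these data known. Beyond CLDN18, QPCT, VSIG2 and TFF1, the rises held the disulfide isomerases AGR3 (2.28) and AGR2 (0.74) and the gastric protease CTSE (1.5). AGR2 acts in the folding of mucins. CEACAM6, a cell-surface relative of CEACAM5, was at 318, 202 and 174 RPKM in control tumors and at 992, 823, 888 and 887 RPKM under the label (2.00 ± 0.30, adjusted p = 0.00241). Leaving out control tumor 2, 6 genes of each list were called, beside 1.1% of all genes.

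Some intestinal genes rose as well. On the list of brush border and nutrient uptake genes, 7 of 23 rose and 0 fell (median 0.44), including PHGR1, the intestinal cadherin CDH17 (2.05), the microvillus motor MYO1A (1.97), GPA33 (1.90) and the lectin LGALS4 (0.94). MYO1A was at 8.46, 4.31 and 4.10 RPKM in control tumors and at 33.2, 22.6, 18.5 and 23.7 RPKM under the knockout label, with no overlap. Only MYO1A and CDH17 were called when control tumor 2 was left out. Of 11 mucins, the membrane-bound MUC17 (2.37, adjusted p = 0.00106) and MUC3A (0.82, adjusted p = 0.0153) rose. MUC17 was at 2.55, 0.897 and 0.102 RPKM and at 10.5, 7.44, 8.47 and 10.2 RPKM. Enzymes that build mucin-type O-glycans and Lewis antigens had 6 rises and 1 fall among 32, led by the sialyltransferase ST6GALNAC1 (1.31) and the blood group transferase ABO (0.93), with B4GALNT3 (-0.80) falling. In the CEACAM and LY6 families 4 of 15 rose, all of them CEACAMs (CEACAM5, CEACAM6, CEACAM7 by 1.69 and CEACAM1 by 0.86), while LYPD1 (-0.89) and CEACAM19 (-0.61) fell.

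Of 21 basal-like markers 2 were higher, SPRR3 (1.98) and the noncoding RNA UCA1 (1.05), and 1 lower, the cystatin CST6 (-1.18). That was 9.52% and 4.76%, near the 6.18% and 5.99% of all genes. The median of these markers was 0.24, and 0 were called without control tumor 2. Among keratins, desmosomal and cornified envelope proteins 5 of 32 rose and 1 fell. The rises were SPRR3, SPRR1A (1.90) and the desmosomal cadherins DSG3 (1.29), DSG2 (1.14) and DSC2 (0.76), which are neighbors on chromosome 18, and the fall was KRT6B (-1.78), a keratin of stressed epithelium.

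HNF4A, the close relative of HNF4G, was at 11.3, 9.96 and 8.49 RPKM in control tumors and at 21.5, 14.6, 16.8 and 21.9 RPKM in tumors labeled HNF4G-KO (0.84 ± 0.19, adjusted p = 0.0172), and was the only one of 11 hepatocyte nuclear factors and partner receptors to pass. Of 15 gut and pancreas identity factors, SOX21 (1.29), KLF5 (1.27) and GATA6 (0.45, adjusted p = 0.0482) rose, and BARX2 (-1.27) fell. KLF5, a factor of proliferating gut epithelium, was at 49.9, 41.4 and 50.2 RPKM and at 114, 113, 121 and 111 RPKM, with narrow spread in both groups. GATA6 was at 5.35, 5.71 and 4.51 RPKM and at 8.35, 7, 6.79 and 7.63 RPKM, and its call was lost in every fit without 1 of the 7 tumors. HNF4A was called in 4 of these 7 fits, and not without control tumor 2 (adjusted p = 0.0753). FOXA1 was at 0.932, 0.679 and 0.519 RPKM and at 1.26, 1.34, 1.36 and 1.87 RPKM, with no overlap. It did not pass (0.52 ± 0.45, adjusted p = 0.452) in the fit of 4 groups, which holds the tumors with FOXA1-OE. A limma fit of only these 7 tumors called FOXA1 (SE 0.14, adjusted p = 0.0158), as it did 39.7% of all genes.

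Secreted proteins of the liver type, classic products of HNF4-bound enhancers in hepatocytes, were split. Of 14 tested, 5 fell, or 35.7%, and 1 rose. SERPINA1, SERPINA5 (-1.21) and SERPINA4 (-1.17) lie in the same serpin cluster of chromosome 14, and SPP1 (-1.16) and complement C3 (-0.82) also fell. The rise was in RBP4, the retinol carrier of blood, at 6.92, 8.06 and 7.15 RPKM in control tumors and 52.6, 37.5, 35.9 and 37.1 RPKM under the knockout label (2.30 ± 0.29, adjusted p = 0.00068). RBP4 and, of the falls, SERPINA1 (adjusted p = 0.00252) were called without control tumor 2.

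Claudins of tight junctions moved in opposite directions. Besides the rise of CLDN18 and the fall of CLDN2, CLDN9 fell (-1.29), and the scaffold proteins PALS1 (1.09) and TJP3 (0.75) rose. Thus 3 of 23 were higher and 2 lower (median 0.15), or 13% and 8.7%, beside 6.18% and 5.99% of all genes. PALS1 was at 3.73, 3.57 and 3.95 RPKM in control tumors and at 7.92, 10.4, 10.4 and 7.85 RPKM under the label. Of 32 integrins, laminins, cadherins and related proteins, CDH17, the hemidesmosomal collagen COL17A1 (1.21), PCDH7 (0.89) and the integrin ITGB6 (0.79) rose, and COL7A1 (-1.58), of anchoring fibrils, and ITGA1 (-0.78) fell. These were 12.5% higher and 6.25% lower, the latter near the share of all genes.

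The list of epithelial-to-mesenchymal transition holds mesenchymal genes and their epithelial opponents, so its median mixes both. On it 3 of 22 genes fell, or 13.6% beside 5.99% of all genes. Another 2 rose, or 9.09% beside 6.18% (median -0.17). The falls were the mesenchymal genes TGFBI (-1.85), the receptor kinase AXL (-1.60) and vimentin (VIM, -1.36). The rises were the epithelial factors OVOL1 (1.18) and GRHL3 (1.17). Other mesenchymal members, among them SNAI2, FN1 and SPARC, did not pass. VIM was at 27.3, 31.4 and 37.7 RPKM in control tumors and at 13.6, 11, 11.6 and 11.2 RPKM in tumors labeled HNF4G-KO (adjusted p = 0.00255). TGFBI, a secreted matrix protein, was at 332, 297 and 292 RPKM and at 66.1, 91.2, 83.0 and 99.8 RPKM (adjusted p = 0.00616). The groups were far apart for both, and all 3 falls were also called without control tumor 2. The 15 markers of fibroblasts and stellate cells, which in a xenograft come from the mouse, were also summed. They came to 175, 174 and 53.9 RPKM in control tumors and to 45.0 to 65.4 RPKM under the label. The stromal sum of control tumor 3 lay inside the range of the HNF4G-KO group, and its VIM and TGFBI were at 37.7 and 292 RPKM. A fit with host stroma as a covariate called 3980 genes against control, and its values for single genes are not given here. Whether stroma had a part in these falls was not tested.

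Targets of the YAP and TEAD pathway showed 5 falls and 2 rises among 26 (median -0.13). ANKRD1, CCN1 (-1.82), AXL, FJX1 (-1.05) and the factor TEAD4 itself (-0.93) fell, and FERMT1 (0.89) and AMOTL1 (0.60) rose. ANKRD1 was at 11.7, 12.1 and 37.3 RPKM in control tumors and at 1.53, 1.44, 1.86 and 1.28 RPKM, and CCN1, a matrix protein, at 34.5, 34.6 and 38.6 RPKM and at 7.46, 12.5, 9.11 and 9.23 RPKM. All falls but FJX1 were called without control tumor 2, which was 15.4% of the list beside 0.9% of all genes. EGF family and MAPK genes had 2 falls among 33, or 6.06%, near the 5.99% of all genes, namely the AP-1 subunit FOSL1 (-1.18) and the ETS factor ETV5 (-0.85). Immediate early genes, which also report handling of tissue, had 2 rises, KLF2 (1.04) and FOSL2 (0.77), and 2 falls, CCN1 and RHOB (-0.86), among 25. That was 8% each way, near the 6.18% and 5.99% of all genes.

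Of 31 guidance and latrophilin-type adhesion genes 9 rose, or 29.0% beside 6.18% of all genes, 22 did not pass and 0 fell (median 0.38). The netrin receptor UNC5B (1.69), SEMA4G (1.38) and netrin NTN4 (1.32) were the largest. UNC5B was at 2.66, 2.00 and 1.21 RPKM in control tumors and at 9.89, 6.80, 7.84 and 9.17 RPKM under the label. The latrophilin ADGRL3 (1.14) and its ligand FLRT3 (1.15) rose together, FLRT3 from 9.51, 7.57 and 8.36 RPKM to 15.9, 24.0, 25.1 and 16.5 RPKM. When control tumor 2 was left out, 5 members were called.

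TGF-beta and BMP genes rose in 5 and fell in 3 of 37, or 13.5% and 8.11%, beside 6.18% and 5.99% of all genes. The ligands BMP2 (1.40) and BMP7 (1.17) and the feedback inhibitor SMAD7 (0.99) were among the rises, and the activin subunit INHBB (-1.5) and the BMP antagonist FSTL1 (-0.91) among the falls. BMP7 was at 10.0, 7.72 and 6.99 RPKM in control tumors and at 23.8, 19.7, 15.9 and 19.8 RPKM. In Wnt signaling 3 of 26 rose, the R-spondin receptor LGR4 (1.47) and WNT11 (1.14) first, and PORCN (-0.76), which lipidates Wnt proteins, fell. That was 11.5% higher and 3.85% lower. Of 21 Notch genes only DTX4 (0.66) was called. Of these 3 lists only BMP7 was called without control tumor 2.

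Inflammatory genes had 4 rises and 3 falls among 30 chemokines, cytokines and NF-kB targets. That was 13.3% higher and 10% lower, beside 6.18% and 5.99% of all genes. CX3CL1 (fractalkine, -2.22) was at 13.7, 12.7 and 12.6 RPKM in control tumors and at 1.91, 2.86, 1.49 and 1.94 RPKM under the label (adjusted p = 0.00108), and IL18 (-0.81) also fell. CXCL14 (1.90) and BST1 (1.25) led the rises. In the interferon response 6 of 47 rose, OAS3 (1.20) and OASL (1.02) first, and the membrane proteins IFITM3 (-1.12) and IFITM2 (-1.0) fell. With control tumor 2, 12.8% of the interferon list were called higher and 4.26% lower, but 0 were called without it. In antigen presentation 1 of 20, the protease CTSS (1.35), passed. PTPRC, carried by all leukocytes, was at 0.0819 to 0.188 RPKM in all 7 tumors.

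Of 28 ceramide and sphingolipid genes 5 rose, or 17.9% beside 6.18% of all genes, 23 did not pass and 0 fell (median 0.44), and 4 were called without control tumor 2. SMPD3, a sphingomyelinase that releases ceramide, was at 2.73, 1.34 and 1.24 RPKM in control tumors and at 16, 10.3, 9.57 and 11.6 RPKM (2.23 ± 0.25, adjusted p = 0.00038). ACER2, a Golgi ceramidase, was at 1.05, 0.407 and 0.254 RPKM and at 4.56, 4.43, 5.32 and 6.43 RPKM, a 9.08-fold higher mean (2.00 ± 0.18, adjusted p = 0.00022). The ganglioside synthase ST3GAL5 (0.83), the ceramide synthase CERS6 (0.70) and the ceramidase ACER3 (0.67) completed the rises. Among 36 fatty acid genes 3 rose, with DGAT2 (1.10) and SCD (0.82) first, and ECI2 (-1.06) fell. That was 8.33% higher and 2.78% lower, beside 6.18% and 5.99% of all genes. Among 31 cholesterol genes the sterol isomerase EBP (-1.19), NPC2 (-0.81) and NSDHL (-0.56) fell, of which EBP and NSDHL lie on chromosome X.

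Detoxifying enzymes rose in 8 and fell in 2 of 33 (median 0.66). The rises included ALDH3A1, CYP2C18 (1.73), the xenobiotic receptor NR1I2 (PXR, 1.66) and the sulfotransferase SULT1C2 (1.5), and the falls were MGST1 (-0.80) and GSTM4 (-0.64). NR1I2 was at 3.82, 1.86 and 0.742 RPKM in control tumors and at 11.1, 7.30, 6.22 and 8.40 RPKM (adjusted p = 0.00861). Leaving out control tumor 2, 5 members were called, all higher. Antioxidant and metal genes went the other way, with 6 of 35 lower and 1 higher. SOD3, the ferroxidase CP (-2.02), the metallothionein MT2A (-1.85) and cytosolic SOD1 (-0.96) fell, and AKR1C2 (0.91) rose. MT2A was at 38.6, 64.4 and 50.4 RPKM and at 11.6, 11.8, 15.9 and 13.7 RPKM.

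Retinoid and vitamin D genes rose in 4 and fell in 3 of 22, or 18.2% and 13.6%, beside 6.18% and 5.99% of all genes. RBP4, RDH10 (1.48), which oxidizes retinol, and the vitamin D hydroxylases CYP24A1 (1.51) and CYP27B1 (0.96) rose, while CALB1 (-1.81), CRABP2 (-1.0) and ALDH1A3 (-0.91) fell. In NAD metabolism NMNAT2 (1.25), which makes NAD, and BST1 (1.25), which consumes it, rose, and NNMT fell, among 22. That was 9.09% higher and 4.55% lower, beside 6.18% and 5.99% of all genes. Of 28 ion and water transport genes 6 rose and 2 fell. The water and glycerol channel AQP3 was at 21.0, 15.2 and 15.0 RPKM in control tumors and at 75.6, 87.1, 108 and 99.6 RPKM (2.38 ± 0.30, adjusted p = 0.00072), the carbonic anhydrase CA2 rose by 1.69, and ATP1B3 (-0.63), the beta subunit of a sodium pump, was among the falls. Extracellular proteases and inhibitors were called in 8.33% each way, near the shares of all genes, with 4 rises, led by MMP28 and the serpin SERPINB5 (1.51), and 4 falls, led by SERPINA1 and the cystatin CST1 (-2.33), among 48. S100 and annexin genes had 1 rise, ANXA10 (1.13), and 3 falls among 25, S100A16 (-0.84) and S100A3 (-0.80) first.

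Of 59 cell cycle genes 11 fell in tumors labeled HNF4G-KO, or 18.6% beside 5.99% of all genes, 1 rose and 47 did not pass (median -0.32). The mitotic cyclin CCNB1 was at 89.2, 109 and 91.4 RPKM in control tumors and at 47.2, 48.8, 53.7 and 50.3 RPKM (-0.93 ± 0.17, adjusted p = 0.0067), and the replication factor GINS2 fell by 0.79. The exception was the G1 cyclin CCNE2 (0.82). Without control tumor 2, 1 member, CCNB1, was called (adjusted p = 0.0498). Of 29 p53 targets and apoptosis genes 5 rose, or 17.2% beside 6.18% of all genes, and 0 passed as lower (median 0.24). The rises were the CDK inhibitor CDKN1A (1.33), TP53INP1 (1.13), BMF (0.72), MDM2 (0.65) and ZMAT3 (0.64). In sign 21 members lay above 0 and 8 below. Those below included the p53 targets TP53I3 (-0.49), BAX (-0.46), PHLDA3 (-0.40) and AEN (-0.37), which did not pass. CDKN1A was at 34.9, 26.4 and 22.8 RPKM and at 83.7, 64.5, 63.3 and 74.5 RPKM, with no overlap, and CDKN1A and TP53INP1 were also called without control tumor 2.

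Some housekeeping genes fell and none of the ribosomal or oxidative phosphorylation genes rose. Of 78 cytosolic ribosomal proteins 12 fell, or 15.4% beside 5.99% of all genes, 66 did not pass and 0 rose (median -0.60), and their RPKM summed to 15230, 18770 and 21970 in control tumors and to 11370, 13420, 13390 and 10560 under the label. RPS2 (-1.26) was among the falls. Of 72 nuclear-encoded oxidative phosphorylation genes 6 fell, or 8.33%, near the 5.99% of all genes, 66 did not pass and 0 rose (median -0.47). NDUFB9 (-0.87) and ATP5PF (-0.86) led these falls. The 13 mitochondrially encoded mRNAs did not pass, as for MT-CO3 (-0.26, adjusted p = 0.686). Of 34 hypoxia and glycolysis genes 1, GAPDH (-1.06), was called. Members called numbered 3 for ribosomal proteins and 0 for oxidative phosphorylation without control tumor 2. In the unfolded protein response CREB3L1 (1.61) and DNAJC3 (0.52) rose, and PHGDH (-0.84), which makes serine, SEC61B (-0.56) and MANF (-0.55) fell, among 38. Of 46 lysosome and autophagy genes 4 rose, with CTSS and ATG9B (1.02) first, and 2 fell, GLA (-0.87) and GUSB (-0.62). Shares called higher and lower were 5.26% and 7.89% for the former list and 8.7% and 4.35% for the latter. Both lay near the 6.18% and 5.99% of all genes. Of 15 protein arginine methyltransferases and partners WDR77 (-0.81) and PRMT1 (-0.50, adjusted p = 0.0457) fell. PRMT1 was at 27.1, 26.5 and 32.2 RPKM and at 21.2, 19.8, 18.3 and 20.0 RPKM, and its call was lost in each fit without 1 of the 7 tumors. Motile cilia genes had 5 rises, RSPH4A (0.98) and DNAAF1 (0.73) first, and 1 fall, CCNO (-0.59), among 21.

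Most of these counts shrank when control tumor 2 was left out, where 1.1% of all genes were higher and 0.9% lower. Adhesion receptors, O-glycan enzymes, CEACAM and LY6 proteins, mucins, identity factors and ion transport genes then had 2 called higher each and 0 lower. Tight junctions had 2 higher and 1 lower, as did chemokine genes and NAD metabolism. Retinoid and vitamin D genes had 3 higher and 0 lower, motile cilia 1 higher and 0 lower, and antioxidant genes 1 higher and 3 lower. Keratins and desmosomes, proteases and fatty acid genes had 1 in each direction. Cholesterol, hypoxia, unfolded protein response, MAPK and immediate early genes had 1 lower and 0 higher each. Hepatocyte nuclear factors, antigen presentation, S100 and annexin genes, lysosome genes, mitochondrial mRNAs and arginine methyltransferases had 0 called.

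Gene length moved with the direction of change. Genes were split into 5 bins of equal size by exon length, and the median log2 fold change went from -0.31 in the shortest (up to 1457 bases) to 0.24 in the longest (7919 bases or more). The shortest bin had 2.68% called higher and 12% lower, the longest 11.7% and 1.97%. Across genes, which are not independent replicates, log2 fold change and length had a Spearman rho of 0.362. Processed pseudogenes, copies of spliced mRNAs that are short and share reads with their parents, had 6 of 1027 higher and 234 lower (median -0.68), which was 27.4% of the 854 falls. Among protein-coding genes 767 of 11055 rose and 542 fell. With trends on length and GC content removed, 15 ribosomal proteins were called lower (median -0.59), 8 oxidative phosphorylation genes lower, 14 classical genes higher, and 1 motile cilia gene higher in place of 5. For other lists the same removal left 15 cell cycle genes lower and 1 higher (median -0.35), 4 p53 targets higher, 5 ceramide genes higher and 1 lower, 11 guidance genes higher and 2 lower, 10 detoxifying enzymes higher and 2 lower, and 3 interferon genes in each direction. The list of epithelial-to-mesenchymal transition had 3 higher and 4 lower, and its median went from -0.17 to 0.0019. The antioxidant list had 6 lower and 0 higher.

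Chromosomes contributed unequally. Of 458 genes tested on chromosome X 6 rose (1.31%) and 67 fell (14.6%), and 4 of the 10 largest falls, CSAG1, CLDN2, MAGEA12 and FAM133A, lie there, although X holds 3.21% of the genes tested. The X-linked BEX3, of the cancer-testis list, fell by 1.42 from 110, 111 and 142 RPKM to 40.0, 47.3, 44.8 and 45.4 RPKM, and 3 of the 4 tested genes of that list fell, also without control tumor 2. On chromosomes 21 and 22 2 of 129 and 3 of 341 genes rose, and 23 and 34 fell. Chromosome 18, with 33 of 178 higher and 5 lower, chromosome 10, with 88 of 541 and 22, and chromosome 13, with 34 of 229 and 7, went the other way. GATA6, SMAD7, SERPINB5 and the desmosomal cadherins lie on chromosome 18, KLF5 and SOX21 on chromosome 13. Gene copies in the pooled clones were not measured, and their part in these shares was not tested.

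**Figure D2:**
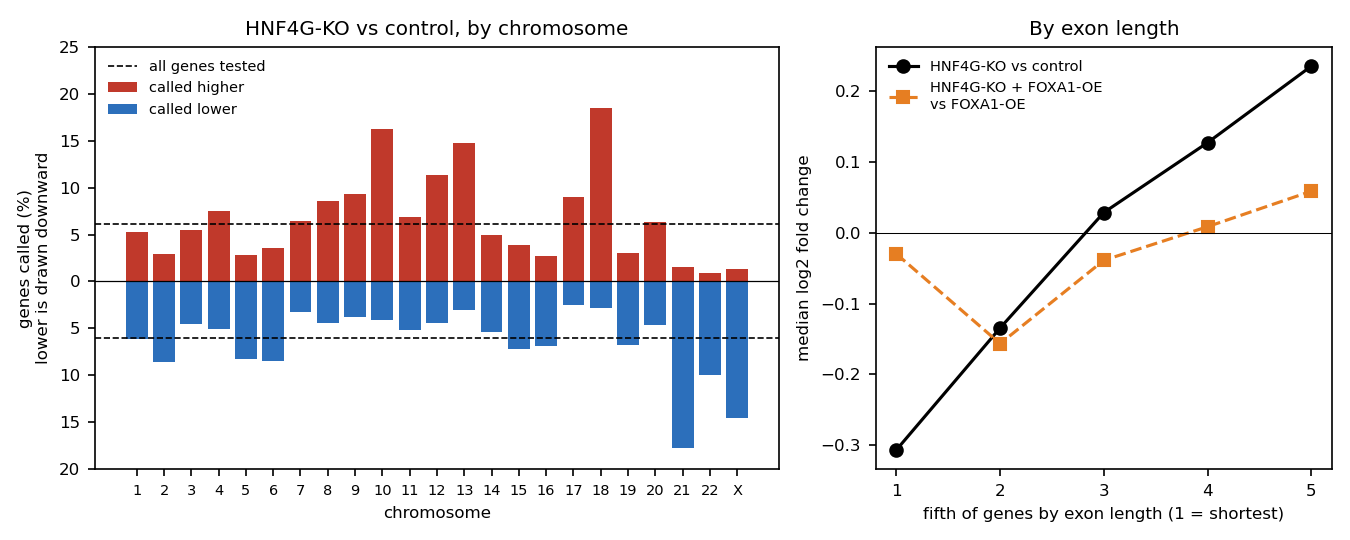
Left, percent of genes tested on each chromosome that were called higher (upward) or lower (downward) in tumors labeled HNF4G-KO, with dashed lines for all genes. Right, median log2 fold change by bin of exon length for the comparison with control and for HNF4G-KO + FOXA1-OE against FOXA1-OE, with chromosomes 18, 10 and 13 highest upward on the left and a slope from -0.31 to 0.24 on the right in the former comparison.

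The same label was compared in other mice, 4 with HNF4G-KO + FOXA1-OE tumors against 3 with FOXA1-OE tumors. These share no tumor with the comparison above, but they carry the same pool of edited clones, so clone differences would recur in both. FOXA1-OE tumor 3 had no more FOXA1 mRNA than control tumors. Of 14269 genes 1122 (7.86%) were called, 474 higher (3.32%) and 648 lower (4.54%), and 519 genes were called in both comparisons, or 29.9% of the first list and 46.3% of the second, 516 of them in the same direction. Of the 1736 genes called against control 90.3% had the same sign, against 70.5% of genes not called. All 10 largest rises and all 10 largest falls had the same sign, and 8 of each were called again. QPCT (4.02), PHGR1 (4.46), CEACAM5 (3.07) and SERPINA1 (-2.36) had log2 fold changes of these sizes and signs there, while CLDN18 (1.15, adjusted p = 0.0541) and NNMT (-1.20, adjusted p = 0.122) did not pass.

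Lists differed in how far the FOXA1-OE background gave like counts. Classical genes had a median of 1.15 with 10 of 21 called higher, gastric genes 1.13 with 9 of 22, and brush border genes 0.82 with 8 of 23. Basal-like genes had a median of 0.42 with 7 of 21 called higher and 0 lower, beside 3.32% and 4.54% of all genes. The list of epithelial-to-mesenchymal transition had a median of 0.28 with 1 of 22 called higher, the epithelial factor GRHL3 (1.30). Another 3 were lower, the mesenchymal genes TGFBI (-2.50), AXL (-1.35) and VIM (-1.08). Ribosomal proteins had a median of -0.62 with 7 of 78 called lower. Cell cycle genes, in contrast, had a median of -0.02 with 1 of 59 lower, and the p53 list 0.02 with 3 of 29 higher. Exon length had a rho of 0.102 here, and processed pseudogenes fell in 1.27% (median -0.09). The difference of the effects, tested as an interaction, was called for 5 genes, BST1 among them (1.25 against control and -0.52 in the FOXA1-OE background, adjusted p of the difference = 0.0419), and for the other genes a difference between the sets of mice was not shown. These calls were fragile, since 0 genes passed in each fit without a control or HNF4G-KO tumor.

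**Figure D3:**
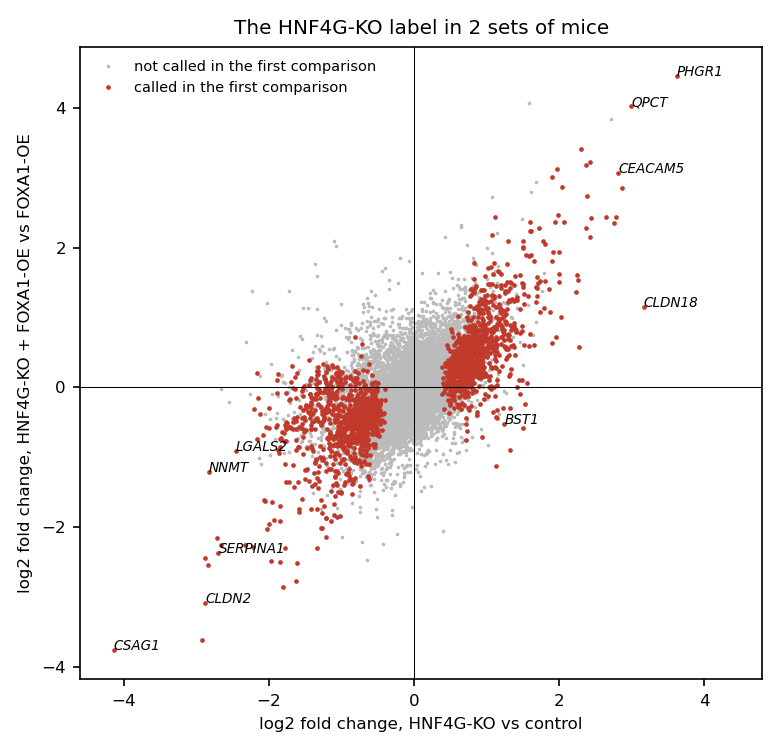
Log2 fold change of HNF4G-KO against control (horizontal) and of HNF4G-KO + FOXA1-OE against FOXA1-OE (vertical), 1 point per gene, with the 1736 genes called in the former in red. Called genes lie mostly at the lower left and upper right, with 90.3% of the same sign, and CLDN18 lies well below the diagonal.

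Markers of mouse cells were examined because mouse reads can align to human genes, and in bulk RNA fewer cells of a type and less RNA per cell cannot be told apart. None of the 4 tested stromal, 15 acinar and islet, 2 endothelial and 2 adipocyte markers passed, as for COL1A1 (-1.22, adjusted p = 0.113), CELA1 (-2.24, adjusted p = 0.305), ESAM (0.37, adjusted p = 0.251) and CIDEC (0.39, adjusted p = 0.446). COL1A1 was at 81.3, 81.2 and 23.1 RPKM in control tumors and at 28.1, 15.4, 23.0 and 25.8 RPKM under the label, so control tumor 3 lay inside the range of the HNF4G-KO group. Of 4 tested leukocyte markers CD14 (-1.41) and C1QB (-1.07) fell, while C1QC and S100A8 stayed under 0.05 RPKM in all 7 tumors, and LYZ, which gastric-type epithelium also makes, was at 494 to 744 RPKM. Without LYZ the 16 other blood cell markers summed to 18.5 to 22.4 RPKM in control tumors and 6.75 to 8.40 RPKM under the label. CD14 made up most of each sum, at 11.2, 13.2 and 17.3 RPKM in control tumors and 4.15 to 5.21 RPKM under the label. Of the 17 listed markers 12 were under 1 RPKM in all 7 tumors. Among these CD68 was higher under the label, at 0.285 to 0.417 RPKM against 0.111 to 0.156 RPKM. In the acinar list control tumor 2 alone decided the difference, since CELA1, at 469 RPKM there and 0 to 4.77 RPKM elsewhere, had a log2 fold change of 0.23 without it.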

How the data were processed

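RNA-seq libraries of total RNA (stranded mRNA kit) came from tumors grown in mice. The authors aligned reads and deposited RPKM values, one table per species. The submitters' processing notes name STAR 2.6.1a, featureCounts 2.0.4, DESeq2 and GRCh38, while the study's methods name GRCh37 for these reads. How mouse reads were treated is not given in the sources used here. No read counts were used. Coordinates, lengths and gene types come from GENCODE release 44, in which 58250 of 58719 gene IDs were found.

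Values were analyzed as log2(RPKM + 1) with limma 3.58.1 in R 4.3.3 (lmFit, eBayes with trend), without a block, with all 14 mice that carry primary HPAF-II tumors in 1 fit of 4 groups (2 tumors of the same mouse averaged), for genes averaging 1 RPKM or more, with Benjamini-Hochberg adjustment over all genes and a threshold of 0.05. Since values are RPKM, the DESeq2 test of the study could not be repeated. Replicates are tumors of separate mice, so p-values measure the spread between mice of the same cell pools. Scripts were tested on simulated data. Python 3.11.15 with numpy 2.4.6, pandas 2.3.3 served for tables, and matplotlib 3.10.9 drew the plots.

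The groups, gene lists and rules were chosen with earlier results of these data known. Genes named are HNF4G, HNF4A, FOXA1, GATA6 and PRMT1; the 10 largest changes in each direction among called genes whose groups do not overlap and whose higher mean is at least 5 RPKM; and per list up to 2 called members in each direction, or the most abundant member where none was called. Upstream sequence is for the 2 largest rises and falls with a RefSeq promoter. Other members named were chosen after their values were seen. Some genes that the rule would name are not reported here. The table of mouse KPC cell lines was not used here. Alternatives covered the pseudocount, the RPKM filter, centering, the groups in the fit, host stroma, GC content and length, a replicate block, robust eBayes, and leaving out each tumor.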

Additional observations from a re-analysis of the deposited data

Results flagged for a closer look

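Of 174 named genes 11 had a tumor that stood apart within the 4 tumors labeled HNF4G-KO by Dixon's test, where chance gives about 1 in 20. Tumor 1 was highest for RBP4 (52.6 RPKM, next 37.5), IFITM3 (252, next 191) and AKR1C2 (10.2, next 6.58). Tumor 2 was lowest for MUC3A (2.62, next 3.59), NMNAT2 (1.34, next 1.97) and ESAM (5.88, next 6.28). Tumor 4 was highest for FOXA1 (1.87, next 1.36) and MAGEA12 (0.0802, next 0) and lowest for SULT1C2 (3.70, next 4.45) and SOD1 (42.7, next 60.0). Tumor 3 was highest for MDM2 (11.3, next 8.97).

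The effect of the HNF4G-KO label differed between mice without and with FOXA1-OE for 5 genes (limma interaction). The differences, on the log2 scale and without minus with FOXA1-OE, were 2.22 for FAM81B (adjusted p = 0.0419), 1.77 for BST1 (adjusted p = 0.0419), 1.66 for IRAK3 (adjusted p = 0.0474), 1.64 for RPL31P34 (adjusted p = 0.0419) and 1.58 for ADGRL3 (adjusted p = 0.0419). FAM81B and IRAK3 rose against control (1.32 and 0.94) and fell in the FOXA1-OE background (-0.90 and -0.71). At an unadjusted p under 0.05 there were 1209 genes. RPL31P34 is a processed pseudogene that can share reads with RPL31 copies.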

How the results depend on the processing

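The 1736 calls of HNF4G-KO against control became 5595 in a fit of only the groups compared, 3835 when control tumor 2 was also left out (chosen after seeing the data), 3980 with host stroma as a covariate and 641 with a log2 fold change of at least 1, and ranged from 284 to 1165 when single tumors were left out (284 without control tumor 2, 538 without control tumor 3, 1165 without control tumor 1, and 1143, 745, 669 and 709 without HNF4G-KO tumors 1, 2, 3 and 4), with 246 genes called in each of these 7 fits. Other settings gave 1191 to 2235. The 1122 calls in the FOXA1-OE background became 86, 1845 and 473 under the first, the covariate and the fold change alternatives, 1797 with the GC content and length trend removed, and 571 to 1439 without single mice, of which only FOXA1-OE tumor 1 (571) moved it by over 1.5 times. The 5 genes of the interaction became 0 with a pseudocount of 0.1, with libraries shifted to the same median, with tumors of the same mouse kept separate or with the GC and length trend removed, 2 without the RPKM filter, and 0 to 7 without single mice (0 in each fit without a control or HNF4G-KO tumor). Of 2953 alternative values of named genes 2399 kept their direction and side of the threshold, 541 lost and 10 gained a call, and 3 changed sign, namely CELA1 (0.23 without control tumor 2 in either fit, and down to -3.59 without other tumors) and MT-CO3 (0.14 with the GC and length trend removed), neither of which was called. Why the counts moved was not tested beyond the median SE given above.

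Replicate numbers are not pairs. Deviations from group means correlated at -0.10 to -0.01 between control and HNF4G-KO tumors of the same number. With the replicate number as a block there were 2235 calls against control, 930 in the FOXA1-OE background and 1 for the interaction.

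Only 3 control and 4 HNF4G-KO tumors were compared, and a gene near 1 RPKM changes by little on the log2(RPKM + 1) scale even when it is lost. Simulated log2 changes of 1 in 200 of 14269 genes were called in 52.5% against control and in 19.5% for the interaction. The simulated noise was independent between genes and far fewer genes changed than were called here, so these rates need not hold for the tumors.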

Other observations

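The 2 peritoneal metastases labeled HNF4G-KO, taken from the mice of tumors 2 and 4, entered no test. For all 10 largest rises and all 10 largest falls both metastases lay beyond the control tumors in the same direction as the primary tumors. These genes were chosen by primary tumors that include those of the same mice, so like directions are partly built in. Some margins were narrow. In the metastasis from the mouse of tumor 4, ANKRD1 was at 11.1 RPKM against 11.7 RPKM in the lowest control. TFF1 was at 105.5 RPKM there against 88.9 RPKM in the highest control. QPCT was at 65.7 and 40.3 RPKM, CLDN18 at 5.99 and 2.71 RPKM, SERPINA1 at 2.30 and 9.16 RPKM and MAGEA12 at 0 in both. PHGR1 was at 1002 and 190.5 RPKM, outside the range of 268 to 419 RPKM in the primary tumors, and FER1L6 at 2.72 and 2.24 RPKM, below their 8.97 to 12.6 RPKM.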
